A study of Homo sapiens with 42 samples.

Results

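Accessible chromatin was examined at the loci of 5 transcription factors of the breast lineage, GATA3, TFAP2C, TRPS1, ELF5 and TFAP2B, in DU4475 cells treated with the remodeller inhibitor FHT-1015. The genes were chosen by name as lineage factors, with earlier results of these data known. A peak belonged to a locus when its summit lay inside the gene or within 100 kb of it. These genes are 5 of 19974 protein-coding genes of RefSeq (GRCh38.p14) whose windows were scored. Between 94 and 131 deposited peaks per DU4475 sample fell at the 5 loci, and 191 of the 315190 regions of 500 bp built from all samples did.

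In GRCh38.p14 coordinates GATA3 spans chr10:8045333-8075198, with the antisense gene GATA3-AS1 inside its bounds. TFAP2C spans chr20:56629306-56639283, and ELF5 spans chr11:34478791-34513794, with CAT as a neighbour in its window. TRPS1 spans chr8:115408496-115668975 and TFAP2B chr6:50818355-50847619. Distances below are counted from the lower or upper end of a gene by coordinate, because the gene table used gives no strand.

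The assay was ATAC-seq, in which a transposase inserts adapters into DNA that nucleosomes leave open. The 42 samples came from 7 established human cancer lines labelled wild type. DU4475 is from an invasive breast carcinoma, and the reference lines are A375 (melanoma), 92-1 (a melanoma of the eye), HCT116 (colorectal), 22RV1 (prostate), RD (rhabdomyosarcoma) and MV411 (a myeloid leukaemia). Every line was exposed for 4 h to DMSO, the solvent control, or to FHT-1015, which blocks both ATPases of the BAF remodelling complexes (SMARCA4 and SMARCA2), with 3 biological replicates per group. No source used here gives the dose. A line is 1 cell population, so p-values measure the spread between cultures of that line.

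GATA3 is a zinc finger factor that specifies and maintains luminal cells of the mammary gland, and TRPS1 is a GATA-type repressor used as a marker of breast carcinoma. TFAP2C and TFAP2B are AP-2 factors of the luminal and secretory programmes, and ELF5 is an ETS factor that directs alveolar progenitors. BAF complexes slide and evict nucleosomes at enhancers, where such factors bind, more than at gene starts rich in CpG.

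Strict peaks are those with −log10 q of at least 5 in the authors' lists. A strict peak stood within 1 kb of an end of 5 of 6 epithelial marker genes (EPCAM, CDH1, KRT8, KRT18 and ELF3) in all 3 DMSO samples of DU4475, and GRHL2 had one in 1 of 3. The same 5 were open with FHT-1015. Of 5 melanocyte genes, SOX10, TYR and MLANA had none in any DU4475 sample, while MITF and PMEL had one in all. None of 4 muscle genes and 1 of 5 myeloid genes was open in all 3 controls. The lists of the 42 samples held 114291 to 431956 peaks and 1412 to 121774 strict peaks. Strict peaks numbered 54756 ± 8480 in the DMSO samples of DU4475 and 40501 ± 5441 in its FHT-1015 samples (SD, n = 3). The number of reads is unknown, and the background pileup recovered from the lists, a stand-in for depth, came to 2.13 ± 0.233 reads in the former and 2.15 ± 0.692 in the latter. Because the number of strict peaks differed between the groups, each count was also made among the 50000 strongest peaks of every sample.

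At GATA3, DU4475 lacked a peak that the other 6 lines carried, with and without treatment. RefSeq lists 6 start windows for GATA3, of 250 bases before and 50 after a start, and 3 of them, picked after the peaks were seen, are printed. Of those not printed, the window at chr10:8054438-8054737 had a peak in 5 of 18 DMSO samples of the other lines, strict in 5. It had a peak in 4 of 18 of their FHT-1015 samples, strict in 1, and in no DU4475 sample. Capitals mark the letters GCCNNNGGC (AP-2 factors), CGGAAG (ETS factors) and TGANTCA (AP-1), searched on both strands. All 3 printed windows lie on the plus strand of chromosome 10. The first is the start at the lower end of the gene (chr10:8045083-8045382). The second (chr10:8053391-8053690) holds the upper end, by coordinate, of the antisense gene GATA3-AS1, at 8053484. The third is an internal start (chr10:8060207-8060506).
Lower start: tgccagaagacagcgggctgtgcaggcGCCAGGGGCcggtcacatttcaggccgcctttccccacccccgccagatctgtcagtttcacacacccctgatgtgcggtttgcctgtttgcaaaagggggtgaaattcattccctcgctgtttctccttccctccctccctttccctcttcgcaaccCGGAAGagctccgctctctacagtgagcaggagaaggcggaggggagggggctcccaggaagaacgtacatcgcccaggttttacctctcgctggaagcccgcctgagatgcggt
Start beside GATA3-AS1: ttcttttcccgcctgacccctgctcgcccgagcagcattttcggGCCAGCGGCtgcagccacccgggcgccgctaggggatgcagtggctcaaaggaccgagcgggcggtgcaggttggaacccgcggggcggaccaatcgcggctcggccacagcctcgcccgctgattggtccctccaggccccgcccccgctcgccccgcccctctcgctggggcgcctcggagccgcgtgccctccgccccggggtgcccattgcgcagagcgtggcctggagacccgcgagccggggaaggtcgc
Internal start: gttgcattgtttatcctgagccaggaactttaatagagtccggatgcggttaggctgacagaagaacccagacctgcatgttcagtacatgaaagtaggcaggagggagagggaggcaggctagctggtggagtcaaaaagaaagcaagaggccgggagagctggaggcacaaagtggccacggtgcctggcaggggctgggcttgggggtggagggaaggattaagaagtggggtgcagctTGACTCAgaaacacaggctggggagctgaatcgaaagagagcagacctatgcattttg
The start beside GATA3-AS1 holds 36 CpG and 74.7% G and C, against 16 and 60.7% in the lower start and 5 and 54.3% in the internal start. The median of all 35116 windows was 58.7% G and C. GCCNNNGGC occurs in 23.2% of all windows, CGGAAG in 19.5% and TGANTCA in 7.71%. AGATAA and TGATAA, read by GATA factors, occur in 10.3% and 7.53% of all windows and in none of the 3. A match of letters is a description and not a binding site.

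The start beside GATA3-AS1 was open in the other 6 lines and had no peak in DU4475. Its 500 bp region (chr10:8053271-8053770, inside GATA3, 8.19 kb from the lower end) carried a peak in 18 of 18 DMSO samples of the other lines, strict in 17, and in 17 of 18 FHT-1015 samples, strict in 15. None of the 6 DU4475 samples had a peak of any strength there. This region was singled out after its values were seen. Over the genome, 4972 regions were strict in at least 17 of the 18 DMSO samples of the other lines, and 59 of them (1.19%) had no peak in any DU4475 sample. The same count gave 0.59% in MV411, 0.303% in RD, 0.3% in 92-1, 0.193% in HCT116, 0.185% in 22RV1 and 0.115% in A375, each set against the remaining lines. At the 5 loci there were 2 such regions for DU4475 and 2 for HCT116, and each of these lines lacked a peak in 1. The remaining lines had 1 such region each at the loci, and none of them lacked a peak in it.

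The stretch that was empty in DU4475 was longer than the start itself. Across the 5.13 kb from the second to the fifth start window, all 36 samples of the other lines had a peak and the 6 DU4475 samples had none. The folds of the strongest peak were highest in MV411, at 24.6, 27.8 and 23.5 with DMSO, and in HCT116, at 19.8, 16.4 and 13.0. They were lowest in A375, at 5.63, 5.65 and 4.88, and in RD, at 5.77, 4.98 and 7.31. In DU4475 the distance between the nearest summits on either side was 12.4 to 15.0 kb, and 10.4 kb were free of any summit in all 6 samples. In whole deposited lists the GATA3 window of DU4475 held 92.8 peaks per Mb with DMSO and 110 with FHT-1015. How often stretches of such a length lack a summit elsewhere was not counted, and these bounds were set after the values were seen. The background pileup, the stand-in for depth, was above 1.65 in 5 of the 6 DU4475 samples. That value was the highest of any sample of another line, and DU4475 FHT-1015 replicate 3 had 1.41. The cause of the empty stretch, depth included, was not tested.

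**Figure D1:**
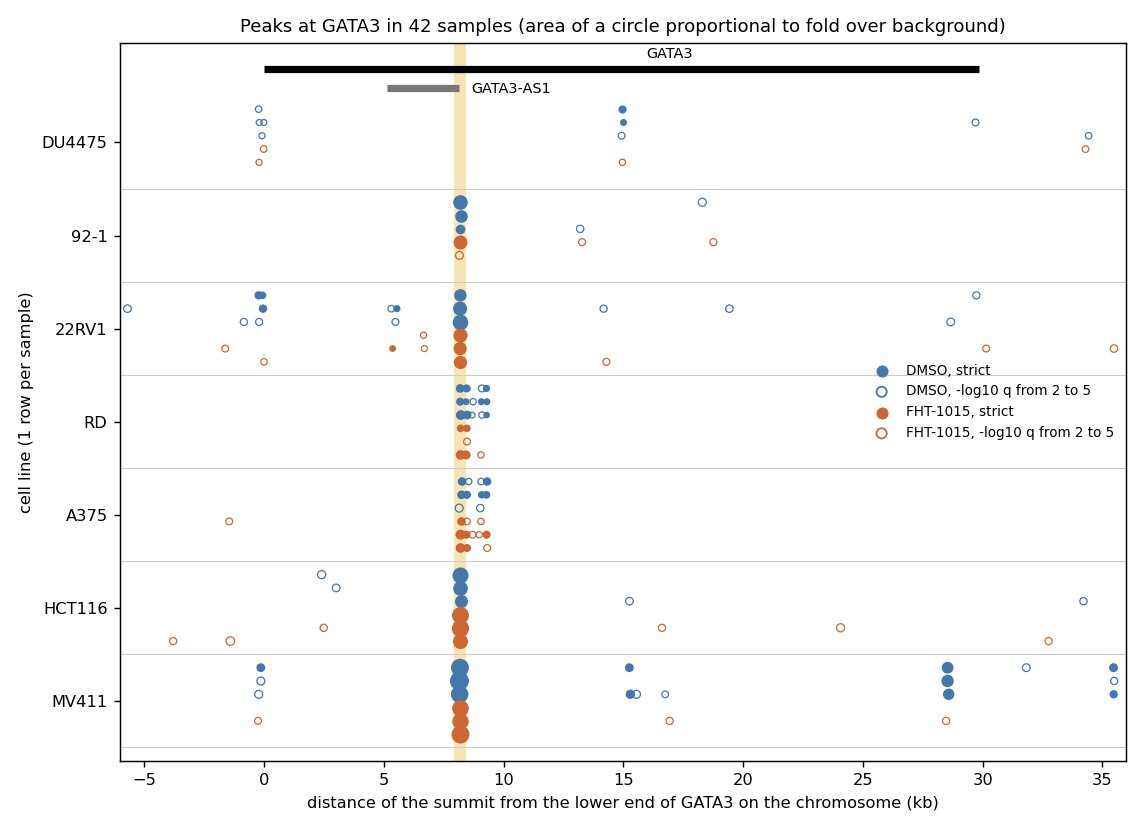
Positions of peaks at GATA3 in 42 samples, 1 row per sample, as the distance of the summit from the lower end of the gene in kb. The area of a circle is proportional to the fold over background, filled circles are strict peaks, open circles have −log10 q from 2 to 5, and weaker peaks are not drawn. The shaded band is the region 8.19 kb inside the gene, which holds circles in every line except DU4475.

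DU4475 had weaker peaks at the start windows on both sides of the empty stretch. At the lower start the folds were 3.14, 2.72 and 2.84 with DMSO and 3.25, 2.84 and 2.32 with FHT-1015, none of them strict. The groups overlapped. The lower start was higher in the DMSO samples of MV411, at 6.02, 4.78 and 4.82, and of 22RV1, at 5.35, 5.44 and 3.77, and had no peak in the DMSO samples of the other 4 reference lines. At the internal start (region chr10:8060044-8060543) the folds were 5.12, 3.78 and 3.50 with DMSO, strict in replicates 1 and 2. With FHT-1015 they were 2.67 and 3.03 in replicates 1 and 2, neither strict, and replicate 3 had no peak. The treated samples lay below all 3 controls, as they did in 22.2% of the 49885 regions of the genome with a peak in all 3 DMSO samples of DU4475 and in 5 of 17 at the loci. Among the other lines this region held a strict peak in 1 of 18 DMSO samples, of MV411, and in no FHT-1015 sample.

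A further GATA3 region lay 14.5 kb outside the lower end (chr10:8030576-8031075), in no gene. Its folds were 4.53, 3.80 and 3.81 with DMSO, strict only in replicate 1, and no FHT-1015 sample of DU4475 had a peak there. In the other lines 1 of 36 samples had a peak in it. When peaks of any strength were counted, it was the 1 region lost in DU4475 of the 17 at the loci with a peak in all 3 controls. Over the genome 4.25% of the 49885 regions with a peak in all 3 controls were lost. No region at the loci was gained by this count, against 1.32%. In all, the GATA3 window held 2, 1 and 0 strict peaks with DMSO and 0, 0 and 0 with FHT-1015. The groups overlapped at 0, and the locus was too sparse to enter the fit over all windows in DU4475.

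The start of TFAP2C was open in every DU4475 sample. Its region at the lower end of the gene (chr20:56628986-56629485) had folds of 6.04, 6.61 and 5.76 with DMSO and 5.55, 6.14 and 5.91 with FHT-1015, strict in all 6 samples. The ranges overlapped. The same region was strict in 12 of 18 DMSO and 12 of 18 FHT-1015 samples of the other lines. It was highest in 22RV1, with folds of 17 to 19.9 with DMSO and 5.33 to 9.28 with FHT-1015, and RD had no peak there with DMSO. Beyond the start, a region inside the gene (chr20:56630044-56630543) was strict in 3 of 3 DMSO and 1 of 3 FHT-1015 samples of DU4475, and the treated replicate 2 had no peak. A distal region 61.4 kb from the lower end (chr20:56690475-56690974) had folds of 6.18, 3.67 and 3.67 with DMSO and 3.87, 4.50 and 5.06 with FHT-1015, which overlap. It was strict in 1 and 2 samples, respectively. Neighbouring summits of 1 interval share its borders, so a region beside a start can be counted through the start's own peak.

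The number of peaks at TFAP2C depended on the scale of counting. The window held 3, 4 and 4 strict peaks with DMSO and 5, 4 and 2 with FHT-1015 in DU4475, a log2 difference of -0.05 (SE 0.28, limma adjusted p = 0.938 over 18119 windows). Among the 50000 strongest peaks the numbers were 3, 4 and 4 against 6, 5 and 5, so that every treated sample lay above every control. The log2 difference was 0.44 (SE 0.14, limma adjusted p = 0.26), and 8.69% of all windows were higher without overlap in this way, while 4.26% were lower. In the whole deposited lists TFAP2C had 23, 24 and 31 peaks against 37, 35 and 38, also without overlap, where 4.87% of windows were and 2.59% were lower. None of these differences passed the adjustment, and that among the 50000 strongest was 0.14 with intervals counted once. RD showed the same order among its 50000 strongest peaks, with 1, 0 and 0 peaks at TFAP2C with DMSO and 8, 7 and 4 with FHT-1015, where 8.24% of windows were higher without overlap.

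TRPS1, the longest of the genes, was open at its upper end and had few strict peaks along its length in DU4475. The region at the upper end (chr8:115668852-115669351) had folds of 7.09, 5.18 and 5.29 with DMSO and 5.45, 5.99 and 6.04 with FHT-1015, strict in all 6. The groups overlapped. In the other lines it was strict in 14 of 18 DMSO samples, with the highest folds in MV411 (24.1 to 27.2), and HCT116 had no peak in it. The only region of the 5 loci called strict in all 3 controls and in no treated sample lay inside TRPS1, 33.4 kb from its lower end (chr8:115441623-115442122). Its folds were 4.79, 4.51 and 5.07 with DMSO, and with FHT-1015 only replicate 2 had a peak, at 2.43 and not strict. All 36 samples of the other lines lacked a peak there. A weaker region 18.7 kb beyond the upper end had folds of 4.69, 3.82 and 2.99 with DMSO, and 2.74 and 2.38 in the treated replicates 1 and 2, with no peak in replicate 3.

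Regions of this kind were not rare. Of 30301 regions strict in all 3 DMSO samples of DU4475, 2016 (6.65%) were lost with FHT-1015, against 1 of 7 at the 5 loci. Of the 307 such regions with no peak in any sample of the other lines, 99 (32.2%) were lost. The 5 loci gained no region, against 30 of 24734 (0.121%) over the genome. The TRPS1 window held 3, 2 and 2 strict peaks with DMSO and 1, 2 and 1 with FHT-1015, which overlap at 2. The log2 difference was -0.53 (SE 0.24, limma adjusted p = 0.28). At −log10 q of at least 2 it was -1.56 (limma adjusted p = 0.0561), and in whole lists it was 0.0606 (limma adjusted p = 0.998). The numbers were 1, 2 and 2 in both groups among the 50000 strongest peaks, but the log2 difference was -0.95 among the 100000 strongest (limma adjusted p = 0.343) and -1.09 with intervals counted once (limma adjusted p = 0.36).

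ELF5 was the locus whose strict peaks were fewer in every treated sample of DU4475. Its window held 4, 3 and 6 strict peaks with DMSO and 2, 2 and 2 with FHT-1015, a log2 difference of -0.79 (SE 0.23, limma adjusted p = 0.159). Over the alternatives run it ranged from -0.98 to -0.11, the latter in whole lists, with limma adjusted p from 0.0847 to 0.997. The difference among the 50000 strongest peaks was -0.55 (limma adjusted p = 0.402), and 0.0741 with intervals counted once. Strict peaks were lower without overlap in 17.5% of all windows in DU4475, and ELF5 was 1 of the 3 member windows tested. The strongest peak of the window belonged to the end of CAT, the catalase gene, 40.0 kb from the lower end of ELF5 (chr11:34438586-34439085). Its folds were 12.8, 14.2 and 13.8 with DMSO and 16.4, 13.5 and 13.7 with FHT-1015. It was strict in 34 of the 36 samples of the other lines. Without peaks within 1 kb of an end of another protein-coding gene, ELF5 held 3, 0 and 3 strict peaks with DMSO and 0, 0 and 0 with FHT-1015, and the groups touched.

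Those remaining peaks came mainly from 2 regions. The one inside ELF5, 10.3 kb from its lower end (chr11:34488802-34489301), had folds of 5.95, 3.38 and 4.10 with DMSO, strict in replicates 1 and 3. With FHT-1015 only replicate 3 had a peak, at 3.29. The other lay in no gene, 11.1 kb from an end of EHF, which encodes another ETS factor of epithelia (chr11:34609730-34610229). Its folds were 6.05, 3.38 and 4.71 with DMSO and 3.91, 2.93 and 3.71 with FHT-1015, so replicate 2 of the controls lay among the treated samples. Neither region was strict in any sample of the other lines. The upper end of ELF5 had a weak peak in all 6 DU4475 samples, with folds of 3.14 to 3.65 with DMSO and 2.85 to 3.20 with FHT-1015. At the same end 22RV1 had strict peaks of 10.7 to 12.6 with DMSO.

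TFAP2B had few strict peaks in DU4475. It held 1, 0 and 0 strict peaks in both groups, too few to enter the fit. The region nearest to the gene, 2.05 kb outside its lower end (chr6:50816057-50816556), had folds of 4.36, 3.53 and 3.82 with DMSO and 5.22, 3.96 and 3.73 with FHT-1015, strict only in the first treated sample. A region inside the gene (chr6:50843796-50844295) had 5.33, 2.61 and 3.58 with DMSO, strict only in replicate 1, and 2.55, 2.78 and no peak with FHT-1015. Both regions were also strict in 2 DMSO samples of MV411, and the first in 1 sample each of 92-1 and HCT116 and in 2 treated samples of MV411.

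**Figure D2:**
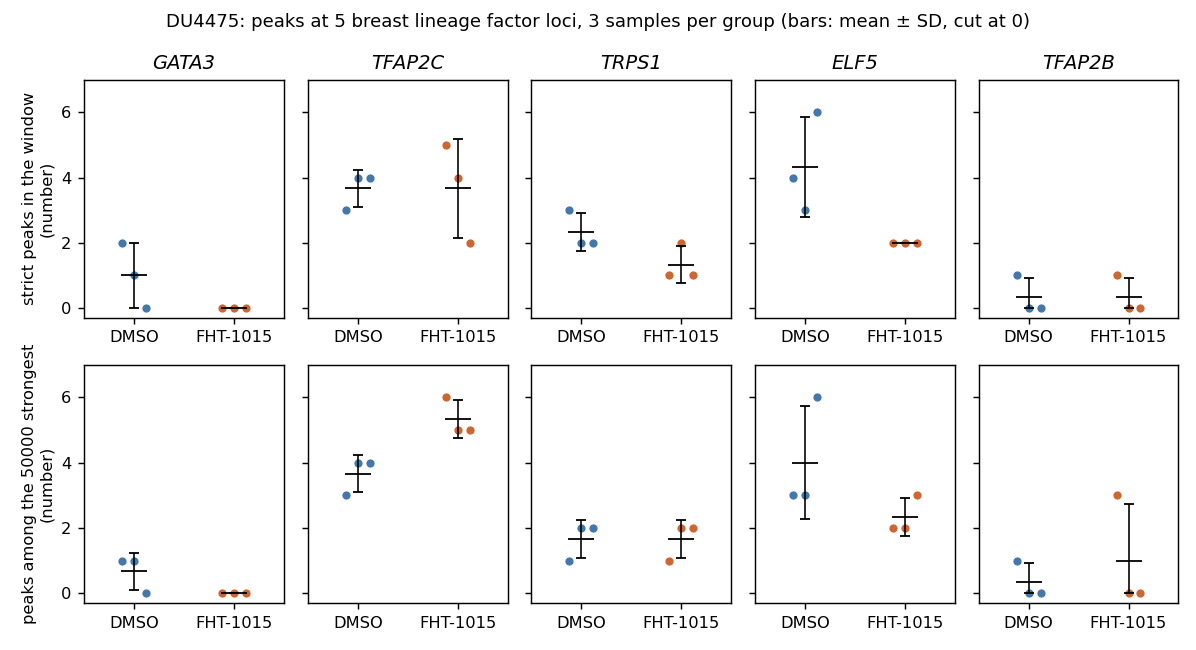
Number of strict peaks (upper row) and of peaks among the 50000 strongest (lower row) in each window in the 3 DMSO and 3 FHT-1015 samples of DU4475. Points are samples and bars the mean ± SD, cut at 0. The strict counts of ELF5 (4, 3 and 6 against 2, 2 and 2) do not overlap, and among the 50000 strongest peaks those of TFAP2C (3, 4 and 4 against 6, 5 and 5) do not.

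Summed over the 5 loci, DU4475 had 13, 10 and 12 strict peaks with DMSO and 9, 8 and 5 with FHT-1015. Every treated sample lay below every control, with a log2 difference of -0.63 (exact permutation test, two-sided, p = 0.1, the smallest that 3 against 3 samples can give). Without peaks within 1 kb of an end of another protein-coding gene, the sums were 12, 7 and 9 against 7, 6 and 3, which meet at 7. Without those within 1 kb of any gene end they were 10, 5 and 6 against 5, 3 and 1, which meet at 5. Strict peaks were also fewer over the genome. The share of strict peaks within 1 kb of a gene end was 47.8 ± 5.88% in the controls and 57.7 ± 2.94% in the treated samples (SD, n = 3), and its part in the sum was not tested. Per 10000 strict peaks of the sample the loci held 2.02, 1.96 and 2.46 with DMSO and 2.16, 1.77 and 1.45 with FHT-1015, which overlap. Among the 50000 strongest peaks the sums were 9, 10 and 12 against 12, 9 and 10, with a mean of 10.3 in both groups (exact permutation p = 1). In the whole deposited lists they were 120, 94 and 104 against 131, 130 and 102, a log2 difference of 0.19 (exact permutation p = 0.3). The direction of the sum therefore depended on which peaks were counted. The limma fit called 0 of 18119 windows in DU4475 at an adjusted p under 0.05, while 3655 had an unadjusted p under 0.05 (20% of windows lower and 0.215% higher with FHT-1015). Among the 50000 strongest peaks it called 0 of 18226, with 5.45% lower and 9.8% higher at an unadjusted p under 0.05. The median log2 difference of all windows was -0.22 with strict peaks and 0.06 among the 50000 strongest.

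Region by region, 17 of the 191 regions at the loci were strict in at least 1 DU4475 sample. Of these, 7 were strict in all 3 DMSO samples and 4 in all 3 FHT-1015 samples, the same 4 being strict in all 6. The 4 are the start of TFAP2C, the upper end of TRPS1 and a pair of adjoining regions at the end of CAT. Of the 17 regions, 11 were strict in more DMSO than FHT-1015 samples and 2 in more FHT-1015 than DMSO samples. Of the 55721 regions of the genome strict in at least 1 DU4475 sample, the shares were 42.9% and 8.56%.

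**Figure D3:**
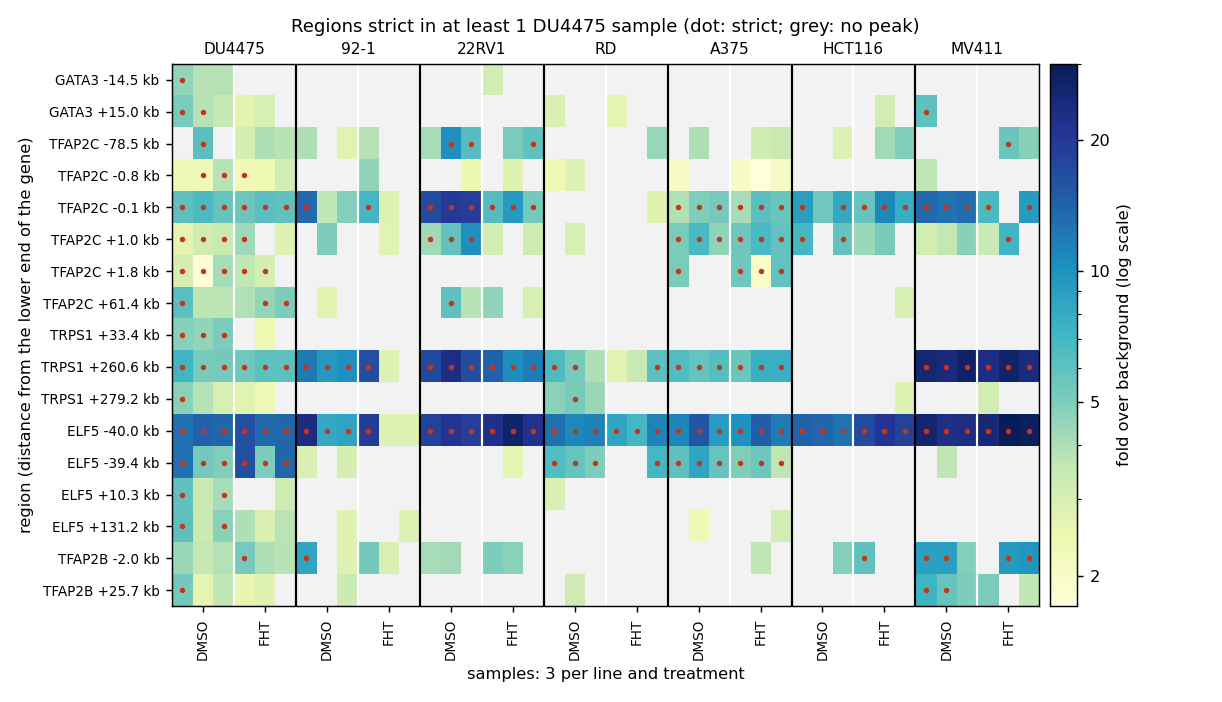
Fold over background (colour, log scale) of the 17 regions that were strict in at least 1 DU4475 sample, in all 42 samples. Rows are regions named by their distance from the lower end of the gene, dots mark strict calls and grey marks no peak. The rows at TFAP2C -0.1 kb, TRPS1 +260.6 kb and ELF5 -40.0 kb are strict across all 6 DU4475 samples, and the row at TRPS1 +33.4 kb is coloured in DU4475 alone.

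In the 6 reference lines strict peaks at the loci fell with the inhibitor. Over these lines the mean log2 difference was -1.27, and it was below 0 in 6 of 6 lines (two-sided permutation p = 2e-05, the labels being exchanged inside each line). The samples had 87, 74 and 63 strict peaks against 27, 32 and 33 in MV411, and 21, 32 and 22 against 9, 10 and 16 in 22RV1. RD had 12, 17 and 14 against 7, 2 and 10. These 3 lines did not overlap between the groups. The numbers overlapped in A375 (45, 43 and 18 against 13, 34 and 14), HCT116 (7, 5 and 9 against 7, 6 and 3) and 92-1 (45, 18 and 10 against 10, 0 and 1). In 92-1 the background pileup was 0.299 in FHT-1015 replicate 1 and under 0.035 in the other 2 treated samples, and its part in the counts was not tested. Without 92-1 the mean difference was -0.94 (permutation p = 9e-05). In whole deposited lists the mean difference of the 6 lines was -0.20 and did not pass (permutation p = 0.164). Strict peaks over the genome were also fewer on average with FHT-1015 in each of these lines. The means with DMSO and FHT-1015 were 112752 and 53196 in MV411, 45253 and 21025 in RD, and 67852 and 40206 in 22RV1. They were 50970 and 42432 in A375, 35338 and 7901 in 92-1, and 24275 and 22955 in HCT116. Per 10000 strict peaks of the sample, the loci of A375 held 7.38, 6.55 and 6.83 with DMSO. With FHT-1015 they held 4.65, 5.06 and 4.36, without overlap. In the other reference lines the groups overlapped on this scale, as in MV411 (7.14, 6.66 and 5.98 against 5.06, 6.08 and 6.16).

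The share of all gene windows lower in the same way differed widely between the lines. Strict peaks were lower without overlap in 75.4% of windows in MV411, 59.2% in RD, 38.6% in 22RV1, 9.61% in 92-1, 2.51% in HCT116 and 0.981% in A375. In MV411 all 5 loci were lower in this way. TRPS1 had 38, 34 and 30 strict peaks against 13, 14 and 14, GATA3 had 17, 12 and 11 against 3, 5 and 4. ELF5 had 17, 14 and 13 against 6, 6 and 9. TFAP2C had 7, 8 and 6 against 4, 5 and 4, and TFAP2B had 8, 6 and 3 against 1, 2 and 2. TRPS1 was lower without overlap in 4 of the 7 lines (92-1, 22RV1, RD and MV411), GATA3 in 3, ELF5 in 2 with DU4475 among them, and TFAP2C and TFAP2B in 1. Among the 50000 strongest peaks the mean difference of the 6 lines was -0.21 and did not pass the threshold (permutation p = 0.0642). It passed with the 20000 strongest (-0.33, permutation p = 0.00367) and with windows of 20 kb (-0.38, permutation p = 0.0049), and was 0.0257 with the 100000 strongest (permutation p = 0.668). With the 50000 strongest the sums were apart in 1 line, A375, with 39, 34 and 30 against 23, 24 and 21. By locus, TRPS1 was lower without overlap in A375 (14, 9 and 11 against 5, 7 and 8) and MV411 (18, 17 and 18 against 13, 14 and 12). ELF5 was lower in A375 (11, 10 and 7 against 4, 6 and 3). TFAP2B was higher in 92-1 (4, 5 and 3 against 8, 11 and 8). Of all windows 5.23% were lower in A375, 4.86% lower in MV411 and 6.4% higher in 92-1.

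The difference between DU4475 and the reference lines did not pass the threshold with strict peaks or among the 50000 strongest, and it depended on the setting. The log2 difference in strict peaks was nearer to 0 in DU4475, by 0.64 (two-sided permutation p = 0.214), and by 0.31 without 92-1 (permutation p = 0.521). At −log10 q of at least 10 it was 0.94 and passed (permutation p = 0.0351). Among the 50000 strongest peaks it was 0.21 (permutation p = 0.25), and it turned to -0.16 with the 100000 strongest (permutation p = 0.348) and to -0.0529 with intervals counted once (permutation p = 0.816). Per locus the difference from the other lines was 0.72 (SE 0.56) at TRPS1, 0.54 (SE 0.46) at TFAP2C, 0.45 (SE 0.48) at TFAP2B, -0.05 (SE 0.51) at GATA3 and -0.03 (SE 0.50) at ELF5, with limma adjusted p of 0.993 or higher over 19262 windows. The median of all windows was 0.28. The fit called 0 of these windows, with 371 at an unadjusted p under 0.05 (0.561% lower and 1.37% higher).

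**Figure D4:**
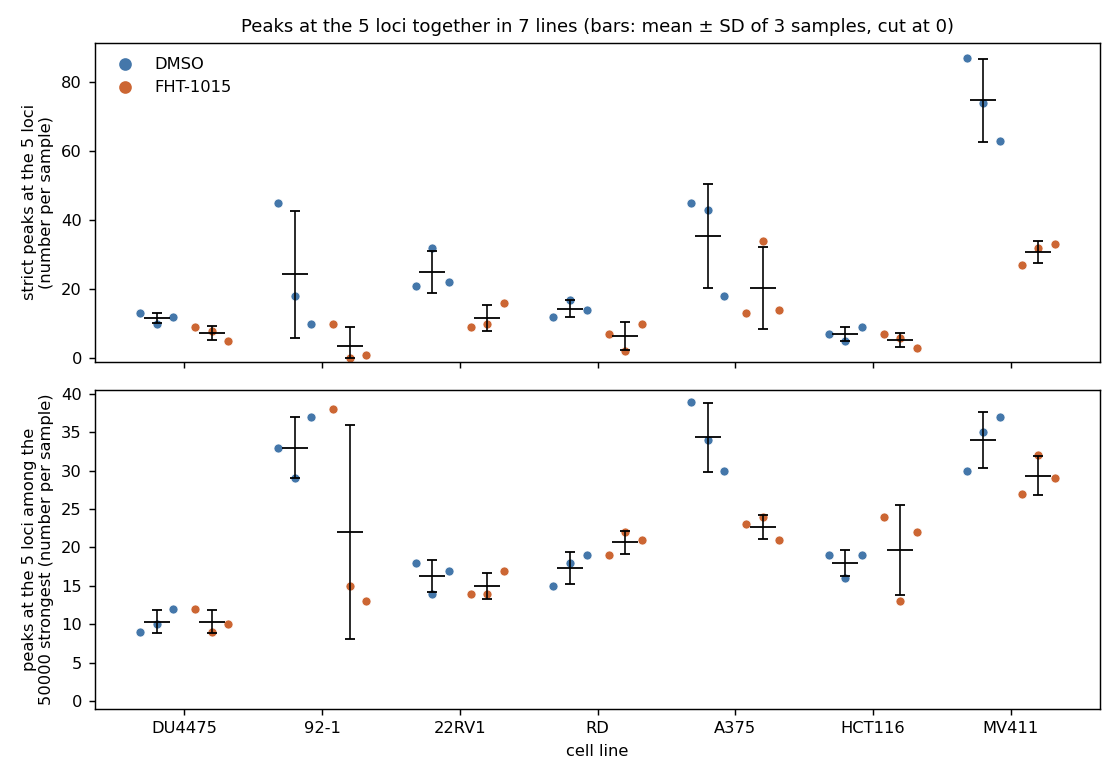
Strict peaks (upper panel) and peaks among the 50000 strongest (lower panel) at the 5 loci together, per sample, in 7 lines with DMSO or FHT-1015. Points are samples and bars the mean ± SD of 3 samples, cut at 0. The strict peaks of DU4475 came to 11.7 ± 1.53 (DMSO) and 7.33 ± 2.08 (FHT-1015), and its samples lie near the bottom of both panels.

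Untreated DU4475, the line of breast origin, had among the fewest strict peaks at these loci. In order of mean strict peaks with DMSO the lines were MV411 (74.7 ± 12), A375 (35.3 ± 15.0), 22RV1 (25.0 ± 6.08), 92-1 (24.3 ± 18.3), RD (14.3 ± 2.52), DU4475 (11.7 ± 1.53) and HCT116 (7 ± 2; SD, n = 3). Only MV411 and A375, and DU4475 and HCT116, were neighbours whose ranges did not overlap. DU4475 was the lowest among the 50000 strongest peaks, at 10.3 ± 1.53, apart from 22RV1 above it at 16.3 ± 2.08. Per 10000 strict peaks it was also the lowest, at 2.15 ± 0.27, against 2.88 ± 0.75 in HCT116, whose range overlapped its own, and 6.96 ± 0.16 in 92-1. The share of strict peaks near gene ends differed between the DMSO samples of the lines, from 13.3% to 55.2% of a sample. With those peaks left out, the loci held 2.38 ± 0.32 per 10000 in DU4475, again the lowest of the 7. In whole deposited lists the sum was 106 ± 13.1 in DU4475, above HCT116 (102.7 ± 44.7) and below A375 (116 ± 18.3). The mean background pileup with DMSO ran from 0.212 in 92-1 to 2.13 in DU4475. Its part in the order of the lines was not tested.

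The order differed between the genes. At GATA3 DU4475 had 1.00 ± 1.00 strict peaks, level with 92-1 (1 in each sample) and overlapping HCT116 (1.33 ± 0.577) and A375 (3.00 ± 3.00). Its place there depended on the list. DU4475 was lowest and apart from the next line among the 50000 strongest peaks, at 0.667 ± 0.577, while in whole lists its 21.3 ± 4.93 peaks lay above the 18.3 ± 6.35 of HCT116 and the 12 ± 2 of A375. At TFAP2C DU4475 lay in the middle, at 3.67 ± 0.577 strict peaks, with A375 highest at 10.7 ± 2.31 and RD at 0 in all 3 samples. At TRPS1 DU4475 had 2.33 ± 0.577, above HCT116 (0.333 ± 0.577) and below 22RV1 (3.67 ± 0.577), whose range met its own. At ELF5 it had 4.33 ± 1.53, between 22RV1 and 92-1 and overlapping both. At TFAP2B it had 0.333 ± 0.577. Set against all gene windows of DU4475, whose median was 33.9 strict peaks per Mb, the loci held 4.35 (GATA3), 17.5 (TFAP2C), 5.07 (TRPS1), 18.4 (ELF5) and 1.45 (TFAP2B) per Mb. Between 5.79% and 27.3% of windows had a lower density than a member.

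Other genes of the lineage and of the same families were counted in the same way. Of 21 luminal genes 19 were tested in DU4475, and strict peaks were lower without overlap at 3 and higher at 1, with a median log2 difference of -0.18. Of 7 basal genes 6 were tested, 2 were lower and the median was -0.52. Of 12 GATA, AP-2 and ELF family members 10 were tested, 3 were lower and the median was -0.27. Over all windows tested 17.5% were lower, 0.237% were higher and the median was -0.22. None of the list genes passed the limma adjustment. The medians among the 50000 strongest peaks were 0.06, 0.11 and -0.02, against 0.06 over all windows.

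The largest falls among well populated windows of these lists were at EGFR, ESR1 and SNAI2. EGFR, the epidermal growth factor receptor, had 21, 14 and 13 strict peaks with DMSO and 9, 9 and 5 with FHT-1015 (log2 difference -0.98, limma adjusted p = 0.154). ESR1, the oestrogen receptor, had 9, 6 and 7 against 4, 3 and 3 (-0.94, limma adjusted p = 0.131). SNAI2, a zinc finger repressor active in basal cells, had 6, 7 and 4 against 3, 3 and 3 (-0.71, limma adjusted p = 0.155). All 3 were apart between the groups with strict peaks and overlapped among the 50000 strongest. TBX3, a T-box factor of the mammary bud, had more strict peaks in every treated sample, with 8, 7 and 8 against 9, 9 and 9 (0.21, limma adjusted p = 0.304), also without overlap among the 50000 strongest. FOXA1, the pioneer factor of luminal cells, had 10, 10 and 6 against 10, 10 and 7 (0.06), and ERBB3 26, 26 and 24 against 26, 28 and 22 (-0.01).

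The genes whose strict peak numbers followed the sum over the 5 loci most closely were DPYD (Pearson r 0.993), ADGRV1 (0.991) and MSN (0.988), over the 14 group means. These means share libraries and the length of each list, and the sum itself had r 0.893 with the total number of strict peaks, so the likeness is given as a description.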

How the data were processed

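The 42 peak lists were used as deposited, 1 per sample. Per the submitters' processing notes Bowtie2, Picard, MACS2, limma and HOMER were used with build hg38. No source used here gives their roles or versions. The fold is a ratio over background that the authors deposited with each peak. Each peak's p-value and q-value were deposited by the authors as −log10. The deposited score was not used. All are the authors' values and describe or filter peaks within a list. Peak names of 4 lines (not DU4475, RD and A375) hold the word small, whose meaning is not given. Treatments were therefore compared within lines, and the order of the untreated lines is a description.

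The 5 genes and all lists were chosen with earlier results of these data known. Windows were each protein-coding gene of RefSeq with 100 kb on each side, on chromosomes 1 to 22 and X. The gene table has no strand or exons, so only gene ends and inside or outside are stated. Start windows came from the RefSeq promoter table (GRCh38.p14), which matched 3 of the 5 genes (GATA3, ELF5 and TFAP2B). Counts were compared as log2(number + 1) with exact permutation tests, with 100000 draws within lines over several lines, and with limma 3.58.1 (trend, R 4.3.3) over windows with a mean of at least 1 peak, adjusted by Benjamini-Hochberg over all of them. Fold changes on this scale understate changes of small numbers. The limma step was tested on simulated counts, with changes placed only in well populated windows and no shift over the genome. That test does not show what the fit can find at sparse loci such as GATA3 and TFAP2B. Regions were windows of 500 bp around strict summits of all lists without overlap, and a region was called in a sample if at least 100 bp of it lay under a peak. A lost region was called in all 3 DMSO and no FHT-1015 sample of a line, and a gained one the reverse. Background pileups were recovered from fold and p with a tolerance of 0.01 on the −log10 scale, for at least 99.97% of the peaks sampled, and limit precision because a deeper library gives smaller p for the same fold. At most 0.0583% of the intervals of 2 DU4475 samples were identical, so none was counted as a copy. Named are all 5 members, the lost regions, the strongest kept region and the gene end regions of each, and of the lists the 3 largest and 3 smallest differences among windows with at least 3 strict peaks in each DMSO sample. Other regions were named after their values were seen. Alternatives were other cut-offs, list lengths and window sizes, left-out samples or lines, pseudocount 0.5, no filter and a replicate block.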

Additional observations from a re-analysis of the deposited data

How the results depend on the processing

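The sum over the 5 loci in DU4475 kept its direction with strict peaks in 12 of 13 alternatives. It was -0.26 at −log10 q of at least 10 (exact permutation p = 0.5) and turned to 0.19 with whole deposited lists (exact permutation p = 0.3), and leaving out 1 sample gave -0.78 to -0.41 (exact permutation p from 0.1 to 0.2). Among the 50000 strongest peaks leaving out 1 sample gave -0.10 to 0.10. In the 6 other lines the strict difference was -0.20 in whole lists (permutation p = 0.164). Without 92-1 their difference among the 50000 strongest peaks was -0.11 (permutation p = 0.208). Their difference among the strongest peaks was -0.33 with 20000 peaks (p = 0.00367, permutation test), -0.38 with windows of 20 kb (permutation p = 0.0049) and 0.0257 with 100000 peaks (permutation p = 0.668). DU4475 differed from the other lines by 0.94 at −log10 q of at least 10 (permutation p = 0.0351, the 1 setting that passed). Among the strongest peaks this difference was -0.16 with 100000 peaks (permutation p = 0.348) and -0.0529 with intervals counted once (permutation p = 0.816). The cause of these changes was not tested.

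The lost regions in DU4475 numbered 1 to 3 when 1 sample was left out: 3 without DMSO replicate 2 and 2 without DMSO replicate 3 or FHT-1015 replicate 1. The gained regions numbered 0 throughout. No locus passed the limma adjustment under any alternative run, although up to 343 windows of the genome did (intervals counted once). Values that turned were, for TFAP2C in DU4475, 0.49 in whole lists, and -0.26 to 0.24 when 1 sample was left out (0.00299 without DMSO replicate 2 or 3 and 0.24 without FHT-1015 replicate 3). TRPS1 turned to 0.0606 in whole lists and ELF5 to 0.0741 among the strongest peaks with intervals counted once. Against the other lines, TFAP2B turned to -0.18 and GATA3 to 0.40 in whole lists, TRPS1 to -0.54 at −log10 q of at least 2, GATA3 to 0.39 and ELF5 to 0.25 at −log10 q of at least 10, and ELF5 to 0.0328 in whole lists and 0.10 with intervals counted once.

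Replicate numbers did not pair the samples. Deviations of same-numbered DMSO and FHT-1015 samples of DU4475 correlated at 0.02, -0.04 and 0.11. With a replicate block the strict difference was -0.63 (exact permutation p = 0.25, the smallest it can give), that among the strongest peaks 0 (exact permutation p = 1), and limma called 0 windows.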
